A study of Homo sapiens with 8 samples.

Results

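Chromosome 19 carries large clusters of human ZNF genes, and their transcripts were followed in DU145 cells with and without SOX11. The members were the protein-coding genes with a symbol starting ZNF on chromosome 19 of GRCh38 that had a raw count of at least 10 in at least 4 of the 8 libraries. They were thus chosen by raw counts, without regard to the group, and their levels are given as a description. It kept 219 genes of the 32066 in the deposited table, out of 238 such genes in that table and 251 in the GENCODE 29 annotation. Of the 219 members, 212 met the count in all 8 libraries, and 0 met it with 4 libraries of one group and no library of the other. RNA was measured by poly(A) RNA sequencing in 4 libraries of DU145 cells with SOX11 overexpression and 4 libraries of control DU145 cells. DU145 is an established epithelial line of human prostate carcinoma, taken from a brain metastasis, and SOX11 is a transcription factor of the SOX family that is known from the developing nervous system. The labels give 1 growth medium with serum for both groups, which are the same line. The SOX11 vector, the control vector if any, the time after its introduction and whether the cells are a clone or a pool is not stated in the labels. Nothing in the labels says that the 4 libraries of a group came from separate cultures, so p-values measure only the spread between these libraries.

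ZNF genes of this kind encode proteins with arrays of C2H2 zinc fingers, small zinc-binding folds that read DNA sequence. Many also carry a KRAB domain, through which they recruit the corepressor TRIM28 (KAP1), the histone methyltransferase SETDB1 and heterochromatin proteins to silence retrotransposons and other targets. The family expanded by tandem duplication, so neighbours on chromosome 19 are often close paralogs, and ZNF gene bodies themselves can carry the heterochromatin mark that this machinery deposits. SOX factors bind short AT-rich words of the type AACAAT and ACAAAG through their HMG box.

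The promoters of 4 members that were called higher are shown because a pair of them shares a promoter and each of the other pair holds a SOX-type word. Each is the stretch of 250 bases before the RefSeq gene start in GRCh38.p14, written 5′ to 3′ on the strand of the gene. ZNF490 lies on the minus strand (window chr19:12610814-12611063) and ZNF791 on the plus strand (window chr19:12610670-12610919). In these 2 sequences the capitals mark the 106 bases that both windows cover (chr19:12610814-12610919), read on opposite strands, and the word AACAAT in the ZNF791 window stands outside them in lower case. ZNF737 (minus strand, chr19:20565782-20566031) and ZNF254 (plus strand, chr19:24086937-24087186) lie in the cluster near the centromere. In their sequences the capitals mark a SOX-type word, ACAAAG or its reverse complement CTTTGT.
ZNF490: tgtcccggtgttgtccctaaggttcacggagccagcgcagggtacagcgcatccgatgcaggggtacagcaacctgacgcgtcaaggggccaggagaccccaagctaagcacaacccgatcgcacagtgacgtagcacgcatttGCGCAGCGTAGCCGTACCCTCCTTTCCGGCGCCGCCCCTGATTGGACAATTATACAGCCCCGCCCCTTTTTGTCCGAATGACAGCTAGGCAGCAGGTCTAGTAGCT
ZNF791: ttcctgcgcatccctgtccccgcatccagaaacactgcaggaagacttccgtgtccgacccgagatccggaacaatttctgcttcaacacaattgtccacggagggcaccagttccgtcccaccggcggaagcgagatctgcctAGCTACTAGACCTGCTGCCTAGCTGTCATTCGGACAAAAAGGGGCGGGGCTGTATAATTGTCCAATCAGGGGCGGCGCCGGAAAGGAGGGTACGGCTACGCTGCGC
ZNF737: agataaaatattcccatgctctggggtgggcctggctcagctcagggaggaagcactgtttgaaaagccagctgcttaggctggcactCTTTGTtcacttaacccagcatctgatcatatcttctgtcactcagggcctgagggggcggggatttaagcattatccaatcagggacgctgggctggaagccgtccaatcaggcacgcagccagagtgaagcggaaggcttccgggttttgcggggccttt
ZNF254: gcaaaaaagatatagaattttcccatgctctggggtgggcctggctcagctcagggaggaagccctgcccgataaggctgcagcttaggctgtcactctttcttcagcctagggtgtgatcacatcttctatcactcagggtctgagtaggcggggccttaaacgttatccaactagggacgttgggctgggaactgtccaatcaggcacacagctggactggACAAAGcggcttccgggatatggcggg
A RefSeq window was found for 196 of the 219 members. The words AACAAT and ACAAAG, which share the letters ACAA and were searched on both strands, gave at least 1 match in 31 of the 196 member windows (15.8%), against 21.1% of 27305 windows of all genes. Among members called higher, 6 of 21 windows held a word (28.6%), and among members tested and not called 25 of 172 (14.5%). The windows of ZNF260, ZNF333 and ZNF493, which had smaller adjusted p than the 4 genes shown, held no word. ZNF737 and ZNF254 were picked because theirs did. The words are letter matches and say nothing of binding. The windows of ZNF490 and ZNF791 were 1 of 7 pairs of members on opposite strands whose windows overlapped. In that pair both genes were called higher. In 2 pairs 1 gene was called (ZNF345 beside ZNF790, and ZNF829 beside ZNF568), and in the other 4 pairs neither was.

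The libraries held 15309037 to 16740516 counts with SOX11 and 14641250 to 18706095 in control. SOX11 itself had 303 to 317 counts in the SOX11 libraries and 0 in each control library. The epithelial markers KRT8, KRT18, EPCAM and CDH1 were present in all 8 libraries, with KRT8 and KRT18 lower in the SOX11 group (log2 fold changes of -0.51 and -0.42, edgeR adjusted p = 0.000254 and 1.42e-10). Their part in the results was not tested. PTPRC, PECAM1, COL1A2 and CHGA had at most 6 counts in any of them. SOX11 replicate 1 stood apart in genes of luminal prostate cells that DU145 lacks. Its 6 luminal markers KLK3, KLK2, FOLH1, HOXB13, TMPRSS2 and TRPM8, a list drawn up after counts of such genes had been seen, summed to 477 counts, against 0 to 5 in the other SOX11 libraries and 1 to 13 in control libraries. In that library 27 genes had at least 20 counts while no other library had more than 3, and 0 of the members were among them. In bulk RNA, fewer cells of a type and less RNA per cell cannot be told apart. The part of this library's other RNA in the results was not tested beyond leaving it out, and values without it are given below.

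Transcripts of the family were mostly of low to middle abundance. Mean TMM-scaled CPM values (counts scaled to 1 common library size) over the 8 libraries ran from 0.628 to 255, with a median of 9.49. Per kilobase of exon the median was 1.73 CPM, against 5.89 over 12574 protein-coding genes that met the same count rule. In 107 members the mean was at least 10 CPM, and in 9 it was under 1 CPM. The spread on the scale per kilobase was wide. ZNF146, which encodes a protein of zinc fingers without a KRAB domain, stood at 61.4 CPM per kb. ZNF121 followed at 14.4 and ZNF317 at 14.1, which differ by less than the spread of ZNF121 over libraries, whereas ZNF146 was far above both. The lowest 3 were ZNF540 at 0.162, ZNF665 at 0.171 and ZNF814 at 0.187 CPM per kb. ZNF540 did not pass the filter of the test, and none of the other 5 was called between the groups. ZNF146 had 254, 254, 256 and 267 CPM in SOX11 libraries, against 243, 250, 258 and 256 in control libraries (log2 fold change 0.03 ± 0.0315 SE, edgeR adjusted p = 0.517). Its exons overlap those of ZNF565 on the opposite strand.

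At the edge of the count rule, ZNF878 was just inside with a fourth-highest count of 10, and ZNF540 with 11. Just outside were ZNF415 with 9 and ZNF763 with 7. ZNF878 had 8 to 16 counts in SOX11 libraries and 6 to 11 in control libraries, and ZNF540 had 8 to 19 counts in SOX11 libraries and 4 to 11 in control libraries. These 2 members did not pass the filter of the test, which left 217 tested members. ZNF540 had 1.17, 1.12, 0.973 and 0.521 CPM in SOX11 libraries and 0.511, 0.595, 0.275 and 0.416 CPM in control libraries, and its groups overlapped through SOX11 replicate 4. It was called higher without a filter on low counts (log2 fold change 1.04 ± 0.344 SE, edgeR adjusted p = 0.0303). Leaving out 1 library at a time, it passed the filter in 5 of the 8 fits. It was called higher in 3 of them, those without SOX11 replicate 4, control replicate 1 or control replicate 2. In those fits ZNF540 passed the filter through SOX11 libraries alone, the group where it was high. Its calls are therefore a description and no support for a rise. Its exons overlap ZFP30 on the opposite strand and ZNF571-AS1 on the same strand. Read counts of ZNF genes can also be shared between paralogs. The median member had 4.61% of its 50-base exon stretches in the transcripts of another gene, and 162 of the 219 were under 10%.

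With SOX11, few of these genes were called and nearly all of the called ones were higher. Of the 217 tested members, 25 were called higher and 3 lower in the edgeR quasi-likelihood test, at an adjusted p below 0.05 over all 15665 tested genes. That is 12.9% of the members, against 20% of all tested genes. The share called higher was 11.5%, near the 10.3% of all genes, while the share called lower was 1.38%, against 9.67% of all genes. No set test was run, so these shares are a description. The changes were small. Members called higher were 1.11 to 1.79 times as high as in control, with a median of 1.252, and the 3 called lower stood at 0.850 to 0.871 of control. None of the 217 tested members reached a 2-fold difference, which 154 of all 15665 tested genes did. The median size of the log2 fold change, whatever its sign, was 0.108 in the members and 0.106 over all tested genes. The median SE was 0.093 in the members and 0.070 over all tested genes. Fewer calls thus do not show that fewer members changed. The untested ZNF540 averaged 0.948 ± 0.297 CPM in SOX11 libraries and 0.449 ± 0.137 CPM in control libraries (SD, n = 4 each).

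The members leaned towards higher levels as a body, including those that were not called. The median log2 fold change of the 217 was 0.05, against 0.00 over all tested genes, and its quartiles were -0.04 and 0.16. A positive log2 fold change was seen in 139 members (64.1%), against 50.3% of all tested genes. Summed over the 219 members, levels were 3233, 3281, 3287 and 3293 CPM in SOX11 libraries, against 3155, 3165, 3164 and 3201 CPM in control libraries. The summed levels of the groups did not overlap, with means of 3273 ± 27.4 and 3171 ± 20.4 CPM (SD, n = 4 each), and SOX11 replicate 1 was the lowest of its group. Single members were separated upward a little more often than all genes, and downward much less often. In 28 of the 217 tested members every SOX11 library was above every control library (10.6% of all genes did so). In 6 of the 217 every SOX11 library was below (10.4% of all genes). Of the called members, 22 of 25 higher and 2 of 3 lower were free of overlap. Among the 189 members not called, 16 were higher and 3 lower at an unadjusted p below 0.05. The share of all uncalled genes at that p was not counted, so these numbers are a description only.

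**Figure D1:**
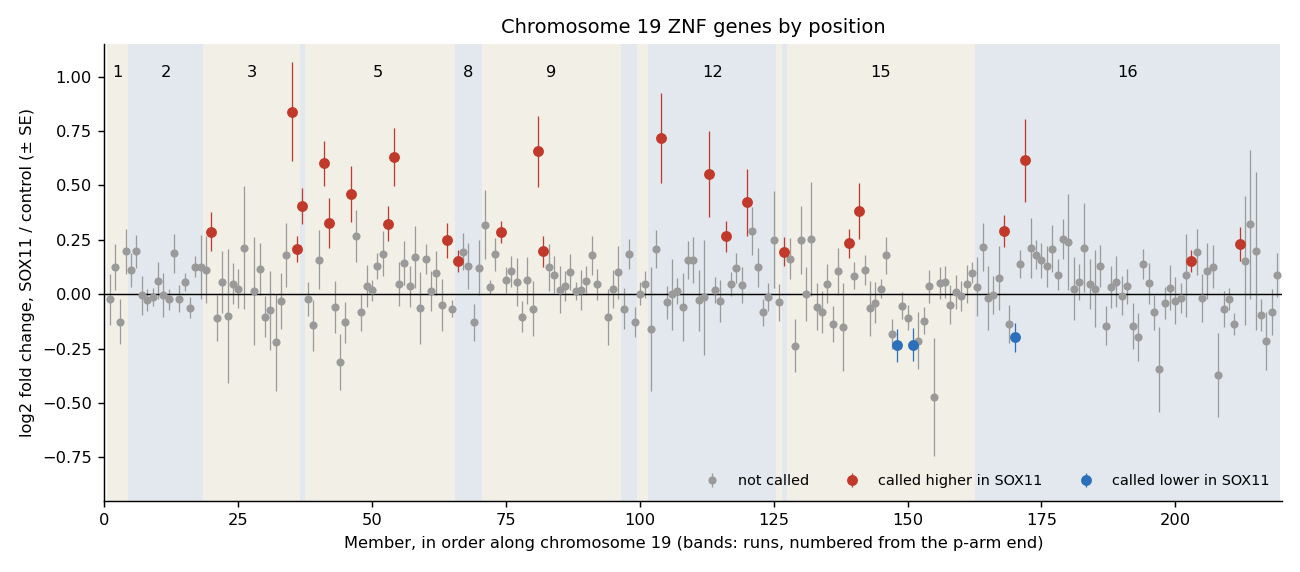
Log2 fold change (SOX11 over control) of each tested member on the vertical axis, against its order along chromosome 19, with bars for ± 1 SE and shaded bands for the runs of neighbouring ZNF genes. The 25 members called higher (red) are spread over many bands and the 3 called lower (blue) lie in the last 2 bands.

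A similar lean was seen in ZNF genes elsewhere and in other genes of middle to low abundance. The 228 tested ZNF genes of other chromosomes had a median log2 fold change of 0.06, with 66.2% positive, 29 called higher and 8 lower. The other 716 tested protein-coding genes of chromosome 19 had a median of 0.01, with 86 called higher and 55 lower. Of these, 79 lie inside the ZNF clusters, with a median of 0.01, 12 called higher and 6 lower. Without SOX11 replicate 1 both of these medians were -0.01, while that of the ZNF genes of other chromosomes was 0.06, with 24 higher and 8 lower. Other zinc finger genes of the chromosome, with symbols such as ZSCAN, ZFP or ZBTB, gave 1 higher and 0 lower of 10 tested. They did not show the lean, with a median log2 fold change of -0.02, 5 positive and 5 negative. Without SOX11 replicate 1 that median was -0.06. Abundance moved with the sign over all genes. Genes with a mean of 3 to 10 CPM had a median of 0.05 over 2326 genes, with 300 higher and 113 lower, and the 84 members in that range had a median of 0.06, with 8 higher and 0 lower. At 10 CPM and above, the median was -0.01 over 9697 genes, with 1074 higher and 1344 lower, whereas the 107 members had a median of 0.04, with 13 higher and 3 lower. The 26 members under 3 CPM had a median of 0.12, against 0.07 over 3642 genes.

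**Figure D2:**
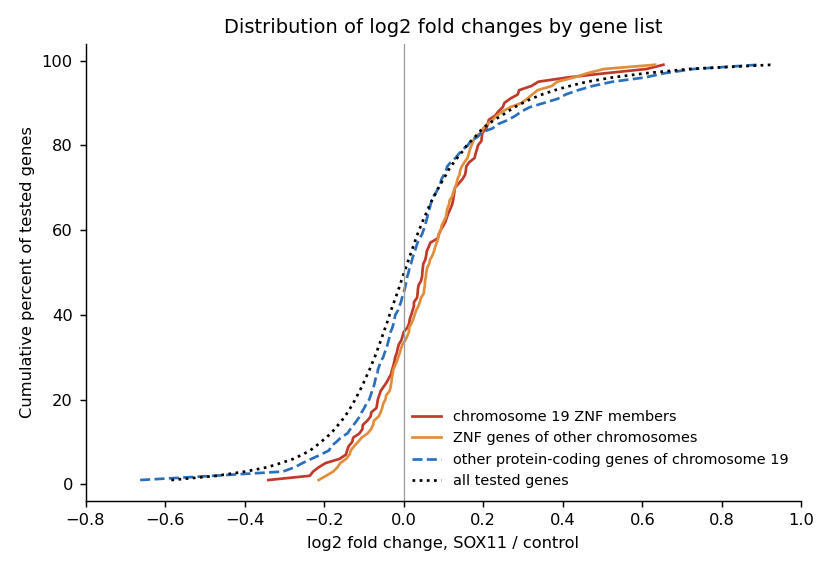
Cumulative percent of tested genes (vertical axis) by log2 fold change, SOX11 over control (horizontal axis), for the members, the ZNF genes of other chromosomes, the other protein-coding genes of chromosome 19 and all tested genes. The curves of both ZNF lists run together, to the right of the other curves at the middle percentiles, with medians of 0.05 and 0.06 against 0.01 and 0.00.

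Position along the chromosome was examined by runs of ZNF genes, expressed or not, with no gap over 1 Mb. There were 16 runs, of which 4 were single genes, and 8 held at least 5 tested members and 204 of the 217 in all. All 8 had a median log2 fold change above 0, but for the run from ZNF175 to ZNF331 it was 0.00 and turned slightly negative with median-of-ratios scaling factors (-0.001), though not with upper quartile factors (0.008). Over all tested genes 10.3% were called higher and 9.67% lower. A run with many members can thus be expected to hold a higher call from that share alone. In 7 of the 8 at least 1 member was called higher, and in 0 of the 8 did lower calls outnumber higher ones. The exception was the run on the short arm from ZNF557 to ZNF846 (chr19:7069444-9793180), where 0 of 14 were called, 7 were positive and 7 negative. Its member with the smallest adjusted p was ZNF562, at 56.8, 56.3, 56.0 and 50.9 CPM in SOX11 libraries and 49.6, 52.2, 48.7 and 51.01 CPM in control libraries (log2 fold change 0.13 ± 0.0468 SE, edgeR adjusted p = 0.0543). The groups overlapped through SOX11 replicate 4, the lowest of its group.

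**Figure D3:**
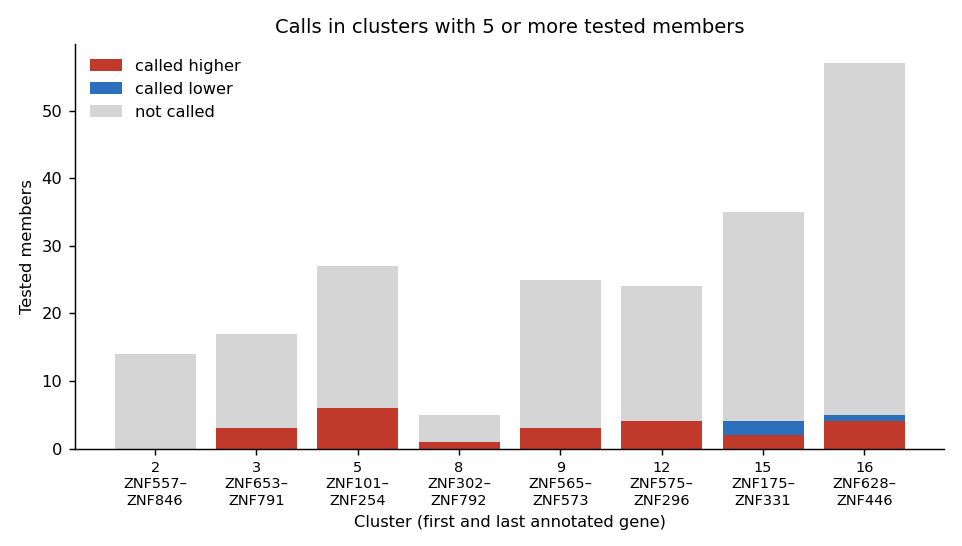
Number of tested members called higher, called lower and not called (vertical axis, stacked) in each of the 8 runs with at least 5 tested members, in order along the chromosome. The run from ZNF101 to ZNF254 had 6 higher calls of 27, and that from ZNF175 to ZNF331 had 2 higher and 2 lower of 35.

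Of the 8 runs, the one nearest the centromere, ZNF101 to ZNF254 (chr19:19668796-24129961), had the most members called higher. There 6 of 27 tested members were called higher and 0 lower, with a median log2 fold change of 0.10. Over all tested genes 10.3% were called higher. Such counts are small, with 3 of 17 in the run from ZNF653 to ZNF791 and 4 of 24 in that from ZNF575 to ZNF296. Without SOX11 replicate 1 the run from ZNF101 to ZNF254 had 4 of 27. Its 27 members summed to 286 ± 4.00 CPM in SOX11 libraries and 266 ± 1.60 CPM in control libraries (SD, n = 4 each), with no overlap. This region is known for ZNF genes of primate origin, among them ZNF91 and ZNF93, which repress SVA and LINE-1 retrotransposons. ZNF253 (ENSG00000256771, chr19:19865886-19894674) had the smallest adjusted p of all members. It had 10.9, 9.46, 9.91 and 10.7 CPM in SOX11 libraries and 6.58, 7.03, 7.69 and 5.61 CPM in control libraries. Every SOX11 library was above every control library (log2 fold change 0.60 ± 0.102 SE, edgeR adjusted p = 5.30e-05). ZNF493 had 5.68, 4.91, 4.62 and 4.69 CPM in SOX11 libraries and 3.26, 3.25, 3.02 and 3.33 CPM in control libraries (log2 fold change 0.63 ± 0.133 SE, edgeR adjusted p = 0.000808). Its groups were apart as well, with SOX11 replicate 1 the highest. ZNF738, a neighbour of ZNF493, had 13.0, 13.0, 13.5 and 13.7 CPM in SOX11 libraries and 9.90, 10.1, 11.5 and 11.0 CPM in control libraries (log2 fold change 0.32 ± 0.0815 SE, edgeR adjusted p = 0.00438). The annotated protein of ZNF738 had a KRAB stretch and 0 zinc fingers of the pattern searched. ZNF737, whose promoter is printed above, had 4.50, 5.15, 5.11 and 5.21 CPM in SOX11 libraries and 4.02, 3.35, 3.57 and 3.60 CPM in control libraries (log2 fold change 0.46 ± 0.128 SE, edgeR adjusted p = 0.0101). SOX11 replicate 1 was its lowest SOX11 library and still above control. The remaining calls of this run were lost without SOX11 replicate 1 and without several other libraries. Of the 8 fits that left out a library, ZNF93 was called in 2 and ZNF254 in 3. ZNF93 had 6.52 ± 0.287 CPM in SOX11 libraries and 5.17 ± 0.606 CPM in control libraries (log2 fold change 0.33), and ZNF254 had 14.2 ± 1.03 CPM in SOX11 libraries and 11.96 ± 0.950 CPM in control libraries (log2 fold change 0.25). ZNF91, named for its known role after its values were seen, had 18.8 ± 0.923 CPM in SOX11 libraries and 16.8 ± 1.04 CPM in control libraries (edgeR adjusted p = 0.102).

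The run from ZNF653 to ZNF791 on the short arm (chr19:11483427-12640098) held the largest rise among the tested members. ZNF490 had 1.36, 1.77, 1.76 and 1.82 CPM in SOX11 libraries and 1.09, 0.811, 0.824 and 1.04 CPM in control libraries. It was low in abundance, and its groups did not overlap (log2 fold change 0.84 ± 0.229 SE, edgeR adjusted p = 0.00845). Of its exon stretches 60.4% are shared with another gene, nearly all with ENSG00000269693 on the same strand, so its counts are uncertain. ZNF791, which starts at the shared promoter and runs the other way, had 23.9, 25.3, 23.8 and 24.4 CPM in SOX11 libraries and 21.4, 22.02, 19.9 and 20.7 CPM in control libraries (log2 fold change 0.21 ± 0.0604 SE, edgeR adjusted p = 0.0129). Both partners of the pair were thus higher, and only 2.04% of the stretches of ZNF791 were shared. ZNF627 was the other call of the run (log2 fold change 0.29), among 17 tested members with a median of 0.05. Further along, ZNF333 stands alone between runs. It had 12.8, 13.7, 13.7 and 14.8 CPM in SOX11 libraries and 10.3, 11.0, 9.96 and 10.0 CPM in control libraries, without overlap (log2 fold change 0.41 ± 0.0816 SE, edgeR adjusted p = 0.000472). Its exons overlap ADGRE2 and ADGRE3 on the opposite strand.

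On the long arm, the run from ZNF565 to ZNF573 (chr19:36182060-37817300) had 22 of 25 tested members on the positive side and 3 called higher. Its 25 tested members summed to 625 ± 12.9 CPM in SOX11 libraries and 597 ± 5.29 CPM in control libraries (SD, n = 4 each). ZNF260, a protein of zinc fingers whose rodent counterpart is known as a cofactor of cardiac transcription, had 38.9, 42.9, 38.6 and 41.5 CPM in SOX11 libraries and 33.3, 32.5, 33.2 and 34.0 CPM in control libraries. The rise was small and the groups well apart (log2 fold change 0.29 ± 0.0515 SE, edgeR adjusted p = 0.000125). ZNF345 had 4.26, 3.67, 4.01 and 4.43 CPM in SOX11 libraries and 2.49, 3.46, 2.40 and 1.80 CPM in control libraries (log2 fold change 0.66 ± 0.163 SE, edgeR adjusted p = 0.00394). The gap between its groups was narrow, since control replicate 2 came close to SOX11 replicate 2. ZNF790, which shares 83 bases of promoter window with ZNF345, was not called (log2 fold change -0.07, edgeR adjusted p = 0.776). The small run from ZNF302 to ZNF792 had 1 of 5 called. ZNF302 had 49.1, 52.5, 49.1 and 47.3 CPM in SOX11 libraries and 49.3, 41.7, 44.6 and 42.8 CPM in control libraries (edgeR adjusted p = 0.0372). Its groups overlapped through control replicate 1. The call held in only 2 of the 8 fits that left out a library, and the fit without SOX11 replicate 1 was among those that lost it.

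In the run from ZNF575 to ZNF296 (chr19:43525497-45076588) 4 of 24 tested members were called higher and 0 lower. ZNF234 had 18.3, 16.8, 16.5 and 17.1 CPM in SOX11 libraries and 14.6, 14.5, 14.2 and 13.7 CPM in control libraries, again without overlap (log2 fold change 0.27 ± 0.0708 SE, edgeR adjusted p = 0.00679). ZNF428, whose annotated protein had 1 zinc finger, had 2.04, 1.72, 2.43 and 2.08 CPM in SOX11 libraries and 1.09, 1.19, 1.30 and 1.46 CPM in control libraries (log2 fold change 0.72 ± 0.206 SE, edgeR adjusted p = 0.0122). It shares 25.04% of its stretches with SRRM5, which overlaps it on the opposite strand, so reads of the 2 genes cannot be told apart there. The other 2 calls were ZNF284 and ZNF233, with group means under 4 CPM. ZNF473, a component of the U7 snRNP that processes histone pre-mRNA, lies alone further along. It was called higher (19.1 ± 0.879 CPM in SOX11 libraries, 16.7 ± 0.704 CPM in control libraries, log2 fold change 0.20). The call held in only 2 of the 8 fits that left out a library, and was lost without SOX11 replicate 1.

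The run from ZNF175 to ZNF331 (chr19:51571298-53580269) was the most even. Of 35 tested members 18 were positive and 17 negative, 2 were called higher and 2 lower, and the members summed to 524 ± 5.83 CPM in SOX11 libraries and 523 ± 10.2 CPM in control libraries (SD, n = 4 each). The lower calls lay close together. ZNF28 had 14.1, 14.2, 13.0 and 12.6 CPM in SOX11 libraries and 15.9, 16.2, 16.8 and 14.7 CPM in control libraries (log2 fold change -0.23 ± 0.0755 SE, edgeR adjusted p = 0.0256). ZNF888 had 12.8, 12.4, 11.7 and 12.7 CPM in SOX11 libraries and 15.01, 13.7, 14.7 and 14.97 CPM in control libraries (log2 fold change -0.23 ± 0.0762 SE, edgeR adjusted p = 0.0285). In both genes every SOX11 library was below every control library, but each call was lost in 4 of the 8 fits that left out a library. They share stretches with paralogs (9.86% for ZNF28, most with ZNF468, and 16.3% for ZNF888, most with ZNF701). On the other side, ZNF766 had 20.6, 19.5, 19.4 and 20.7 CPM in SOX11 libraries and 15.7, 17.9, 17.99 and 16.6 CPM in control libraries (log2 fold change 0.23 ± 0.0677 SE, edgeR adjusted p = 0.0130), and ZNF880 was the other higher call. The lowest log2 fold change of the tested members was also here, and it rested on few libraries. ZNF665 had 1.05, 1.42, 1.09 and 0.651 CPM in SOX11 libraries and 0.958, 1.24, 2.34 and 1.46 CPM in control libraries, with overlap and no call (log2 fold change -0.47 ± 0.272 SE, edgeR adjusted p = 0.241). It was -0.19 when control replicate 3 was left out and -0.31 when SOX11 replicate 4 was, above the -0.37 of ZNF135 in the fit of all 8 libraries.

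The run at the end of the long arm, ZNF628 to ZNF446 (chr19:55476332-58481230), was the largest, with 57 tested members, 4 called higher and 1 lower. ZNF580, a short protein with 3 zinc fingers, had 16.4, 16.6, 15.8 and 16.6 CPM in SOX11 libraries and 13.9, 14.1, 12.02 and 13.2 CPM in control libraries (log2 fold change 0.29 ± 0.0746 SE, edgeR adjusted p = 0.00524). Its groups did not overlap, and 11.4% of its stretches are shared, nearly all with the overlapping ZNF581. ZNF787 had 24.2, 22.7, 27.9 and 25.01 CPM in SOX11 libraries and 26.0, 30.7, 27.2 and 30.4 CPM in control libraries (log2 fold change -0.20 ± 0.0668 SE, edgeR adjusted p = 0.0333). Its groups overlapped through SOX11 replicate 3. The call held in only 3 of the 8 fits that left out a library, and the fit without SOX11 replicate 1 was among those that lost it. ZNF582, ZNF587 and ZNF8 were the other calls of the run, all higher. ZNF587 and ZNF8 share 35.5% and 22.8% of their stretches with other genes. Most of that lies with the overlapping ZNF814 and ZNF8-ERVK3-1 (31.15% of all ZNF587 stretches and 19.76% of all ZNF8 stretches). ZNF274, which is known to bring SETDB1 to the 3′ ends of ZNF genes, was looked at for that role after its values were seen, and had 39.1 ± 1.55 CPM in SOX11 libraries and 39.7 ± 1.67 CPM in control libraries (edgeR adjusted p = 0.803).

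**Figure D4:**
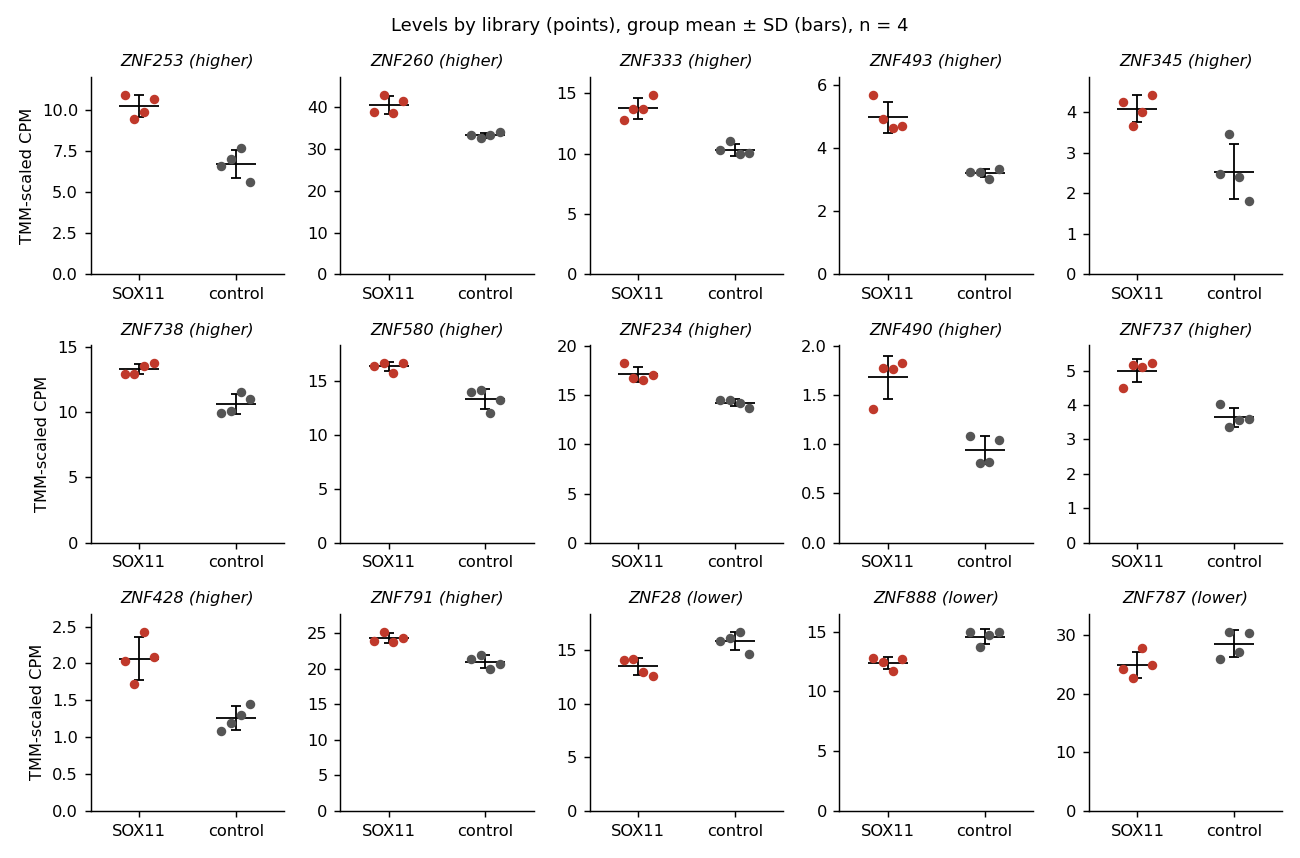
TMM-scaled CPM (vertical axes, each from 0) of 15 called members, with SOX11 libraries on the left and control libraries on the right of each panel. Points are libraries and bars the mean ± SD of 4. The groups are apart in every panel but that of ZNF787.

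The calls were read against SOX11 replicate 1 and against each other library. Without SOX11 replicate 1, 16 of 218 tested members were called higher (7.34%, against 8.28% of all genes) and 3 lower (1.38%, against 8.16% of all genes). All 16 were among the 25, and of the 3 lower ones ZNF28 and ZNF888 remained, joined by ZNF544 (log2 fold change -0.16). The median log2 fold change of the members was then 0.06, with 65.1% positive, and no called member changed direction. The 9 higher calls lost were those of ZNF93, ZNF254, ZNF302, ZNF829, ZNF233, ZNF473, ZNF880, ZNF587 and ZNF8. ZNF253 stayed called, at a log2 fold change of 0.57 (edgeR adjusted p = 0.000589), and so did ZNF490 at 0.93 (edgeR adjusted p = 0.00763). In the run of ZNF101 to ZNF254, 4 members were then called higher, and in the run from ZNF175 to ZNF331 the 2 lower calls outnumbered 1 higher call. Other libraries mattered too: 13 members were called higher when control replicate 3 was left out, 16 when SOX11 replicate 3 was and 16 when control replicate 4 was, with 1 lower in each of these fits. The 10 members called higher in all 8 such fits were ZNF253, ZNF260, ZNF333, ZNF493, ZNF345, ZNF738, ZNF580, ZNF234, ZNF490 and ZNF737. At the other end, ZNF233 and ZNF829 were each called in 1 of the 8. With all libraries their edgeR adjusted p was 0.0490 and 0.04995. With DESeq2, 12 of the 217 tested members were called higher and 0 lower, against 7.44% of all genes higher and 7.93% lower (15.4% in all). The share of members called higher was thus below that of all genes. For 7 members DESeq2 gave no adjusted p. At an unadjusted p below 0.05, 31 members were higher and 5 lower, and the share of all genes was not counted.

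**Figure D5:**
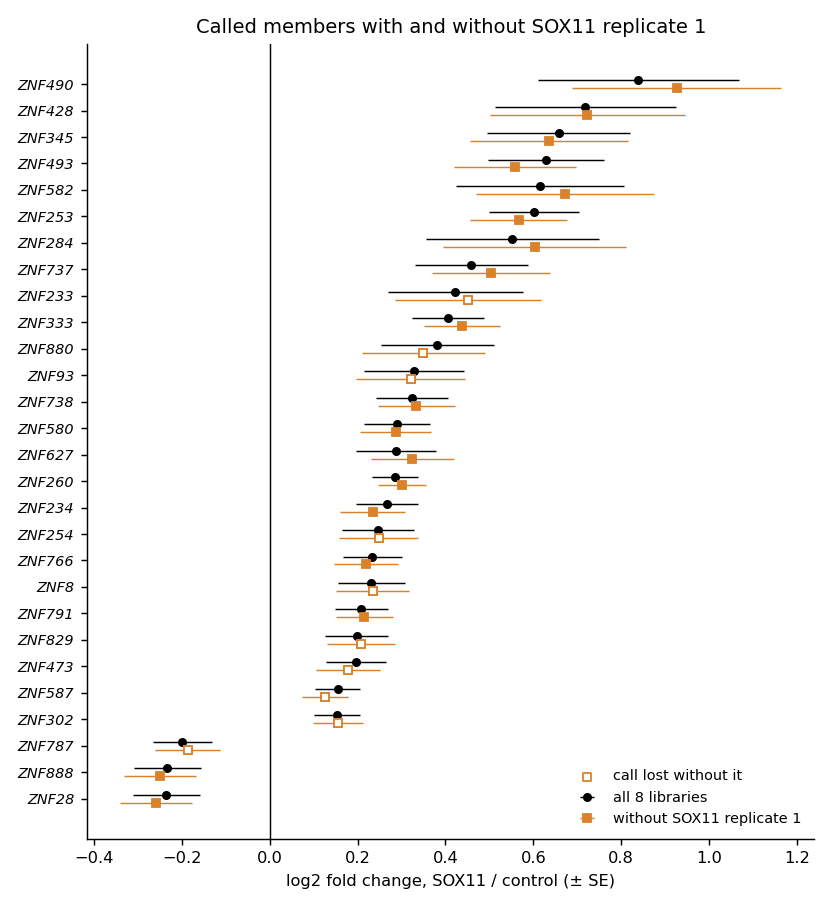
Log2 fold change, SOX11 over control, with ± 1 SE (horizontal axis) of the 28 called members, over all 8 libraries (black circles) and without SOX11 replicate 1 (orange squares, open where the call was lost). Each gene stays on its side of 0, from 0.93 for ZNF490 to -0.26 for ZNF28 without that library.

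What the called members share beyond position was examined in their proteins, translated from the GENCODE 29 coding sequences. The members had a median of 12 zinc fingers, from 0 to 31, the most in ZNF91. A KRAB stretch was found in 183 of 218 proteins, and a protein without a match is not shown to lack the domain. Of the 181 tested members with the stretch 19 were called higher and 2 lower, with a median log2 fold change of 0.05. Of the 35 without it 6 were called higher and 1 lower, with a median of 0.07, so that 11.6% with and 20% without the stretch were called. Members with up to 12 fingers gave 13 higher and 1 lower of 111, and those with more gave 12 higher and 2 lower of 105. No test was run on these classes. Members with under 10% of shared stretches gave 18 higher and 2 lower of 161, and the others gave 7 higher and 1 lower of 56. Overlap with other genes was common, since 11 of the 28 called members share exon bases with a gene on the opposite strand and 9 with a gene on the same strand. Whether counting used the strand is not stated in the labels, so reads of such pairs cannot be told apart.

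The corepressors through which KRAB proteins act, and other chromatin genes listed with them, did not move as one. TRIM28, the corepressor that binds the KRAB domain, had 343 ± 21.4 CPM in SOX11 libraries and 349 ± 20.7 CPM in control libraries (SD, n = 4 each, edgeR adjusted p = 0.771). Of the 38 listed genes, not all of them corepressors, 10 were called higher and 2 lower (31.6%, against 20% of all genes). Their median log2 fold change was 0.02. The listed genes are abundant, with a median of 85.9 CPM against 20.2 CPM over all tested genes. Of all genes at 10 CPM and above, 24.9% were called. The median size of the log2 fold change, whatever its sign, was 0.061 in the list and 0.106 over all tested genes. CBX5, which encodes the heterochromatin protein HP1α, was higher, at 192 ± 7.50 CPM in SOX11 libraries and 137 ± 6.89 CPM in control libraries (log2 fold change 0.48 ± 0.0375 SE, edgeR adjusted p = 3.86e-11). The DNA methyltransferase gene DNMT3A was higher as well, at 56.9 ± 2.11 CPM in SOX11 libraries and 40.2 ± 2.03 CPM in control libraries (0.50 on the log2 scale). Smaller rises were called in ATRX (0.26), RBBP4 (0.22), CBX1 (0.20), KDM4A (0.18), SMARCAD1 (0.15), ATF7IP (0.14), EHMT2 (0.11) and HDAC2 (0.11), all log2 fold changes. MBD2, a methyl-CpG binding subunit of the NuRD complex, and TASOR, a subunit of the HUSH complex that silences retrotransposons, were lower (log2 fold changes of -0.19 and -0.14). RBBP4, TASOR, HDAC2, KDM4A and EHMT2 overlap a gene on the opposite strand. SETDB1 was not called (log2 fold change 0.03, edgeR adjusted p = 0.694). Without SOX11 replicate 1, 8 of the 38 were called higher and 2 lower.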

How the data were processed

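Per the labels' protocols, poly(A) libraries were made with TruSeq Stranded mRNA reagents. The submitters' processing notes name cutadapt, FastQC, STAR 2.7.0e and GRCh38, and give neither the counter, nor its strand setting, nor its annotation. The authors deposited a table of raw counts per Ensembl gene, without normalization. Symbols were taken from the Ensembl names given with the reference, and coordinates from GENCODE 29.

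From the counts, filterByExpr (minimum count 10) kept 15665 genes. Scaling used TMM factors. Genes were tested by edgeR 4.0.16 in R 4.3.3 with a robust quasi-likelihood fit and group as its only term, with Benjamini-Hochberg adjustment over all tested genes, and a call needed an adjusted p below 0.05. The direction of fold changes is SOX11 over control. CPM values are TMM-scaled. The fit was tested on simulated data. Alternatives were other scaling factors and filters, DESeq2 1.42.0, voom in limma 3.58.1, a replicate block, offsets for length and GC content, a higher count rule, shorter gaps between runs, and each library left out.

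The members and lists were chosen with earlier results of these data known. Genes were named by rule: the 12 with the smallest adjusted p called in each direction, the 3 highest and 3 lowest per kilobase, the largest rise and fall, 2 genes on each side of the count rule, and the member with the smallest adjusted p in each run of 5 or more tested members. Called genes of the corepressor list and TRIM28 were added. Called members beyond that rule are named after their values were seen. Protein features came from GENCODE 29 coding sequences, since RefSeq proteins were not used here. A zinc finger was counted where cysteines with 2 residues between them were followed by 12 residues and a pair of histidines with 3 residues between them. All within-group pairs of libraries differed by more than sampling noise. A marker gene of the cell line check is not reported here.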

Additional observations from a re-analysis of the deposited data

Results flagged for a closer look

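Among the 25 named members, 50 groups of 4 libraries were searched for a library far from the other 3 (Dixon's test), which chance finds in about 1 group in 20. There were 5 such groups. In SOX11 replicate 1, ZNF490 was at 1.36 CPM, below 1.76 to 1.82 CPM in the other SOX11 libraries, and ZNF737 was at 4.50 CPM, below 5.11 to 5.21 CPM. In SOX11 replicate 4, ZNF146 was at 267 CPM, above 254 to 256 CPM in the other SOX11 libraries, and ZNF562 was at 50.9 CPM, below 56.0 to 56.8 CPM. In control replicate 4, ZNF121 was at 113 CPM, above 97.5 to 100.02 CPM in the other control libraries.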

How the results depend on the processing

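Over the scaling factors, filters and tools tried, the members called higher were always more than those called lower. DESeq2 gave 12 higher and 0 lower members, and offsets for length and GC content gave 6 lower and 2 runs with more lower than higher calls, against 0 in the main fit. Leaving out each library in turn gave 13 to 22 higher and 1 to 3 lower members, a median log2 fold change of 0.0429 to 0.0626, 0 to 1 such runs and 2466 to 3057 genes called in all. Same-numbered libraries did not deviate together (correlations of -0.0683 to 0.109), so the numbers are taken as names. With the replicate number as a block, 23 members were higher and 3 lower, with 2899 genes called in all. Leaving out libraries moved the log2 fold change of ZNF814 between -0.067 (without SOX11 replicate 1) and 0.236, and that of ZNF317 between -0.040 and 0.012 (0.0035 without SOX11 replicate 2, 0.012 without control replicate 2), and neither gene was called. The cause of these changes was not tested. The median of the run from ZNF175 to ZNF331 was below 0 in 11 of the 17 fits. Restricting to members with under 10% of shared stretches, a choice made after seeing the data, gave 18 higher and 2 lower. Counts of 10 to 50 leave wide errors for the rarest members, and with 4 libraries a group small changes can be missed.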
